A study of Mus musculus with 17 samples.

Results

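The 41 DNA replication genes described here were taken by name from a list of genes that license origins, run the replication fork and supply nucleotides, out of the 55335 genes counted. The list was drawn up with earlier results of these data known, and all 41 passed edgeR's filter on low counts in both cell types. The RNA came from skeletal stromal/stem cells (SSCs, gated Sca-1+ PDGFRα+) and osteoprogenitors (OPCs, Sca-1- PDGFRα+/-) of the bone fraction of Mus musculus. Both were gated CD45-, Ter119-, CD31- and CD51+. The mice were female littermates of 8 to 12 weeks that were WT for Cxcr4 (Cxcr4+/+), heterozygous (+/1013) or homozygous (1013/1013) for the 1013 knock-in allele, which truncates the receptor's tail and is present in every cell. Each library was a pool of 3000 cells from 3 mice, with 3 libraries a group and 2 for 1013/1013 SSCs (17 in all), so each p-value below measures the spread between pools. With pools of this kind, a smaller share of replicating cells and less of these transcripts per cell cannot be told apart.

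Replication starts when the origin recognition complex, Cdc6 and Cdt1 load the ring of Mcm2 to Mcm7 onto DNA. Cdc45, the GINS complex and Mcm10 turn that ring into a working helicase, after which primase and polymerases copy both strands behind it. The clamp loader of Rfc proteins places the ring-shaped clamp Pcna, which holds the polymerases on DNA, while Rpa proteins coat single strands and Fen1 and Lig1 finish the lagging strand. Most of these genes are transcribed around the start of S phase under E2F factors, and a tissue of mainly resting cells carries little of their RNA.

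Promoter stretches of 7 members described below are printed to show where E2F-type words lie in 5 of them. RefSeq promoter windows, reaching from 250 bases before to 50 bases after the start (GRCm38.p6), matched 35 of the 41 members with 42 windows. The words TTTGGCGC, TTTCCCGC, TTTGCCGC and TTTCGCGC were searched on both strands, and a word read in one direction can overlap one read in the other. At least 1 word lay in 33.3% of the members' windows (14 of 42) and in 2.26% of the 32851 windows of all genes. Of the printed members, Mcm5, Mcm6, Cdc6, Pola1 and Uhrf1 had words upstream of a start. Gins3, Mcm7, Orc1 and Rfc3, which are not printed, had words upstream too. Cdt1, Lig1, Mcm3, Pold1 and Pole2 had them only after a start. For Uhrf1 the word lies before the start of its other window, inside the gene, and the window at the gene's first start holds none. The windows of Pcna and Rfc1, and those of Rrm2, Cdc45 and Mcm10, which are not printed, hold none of these words. The stretches below run 5′ to 3′ on the gene's strand, hold no annotated exon, and carry the words in capitals, where a longer run of capitals is a pair of overlapping words. They lie at chr8:75109316-75109407 on the plus strand (Mcm5), chr1:128359706-128359855 on the minus strand (Mcm6), chr11:98907982-98908060 on the plus strand (Cdc6), chrX:93632246-93632333 on the minus strand (Pola1), chr17:56304088-56304175 on the plus strand (Uhrf1), chr2:132253315-132253356 on the minus strand (Pcna) and chr5:65335671-65335770 on the minus strand (Rfc1). A word is a match of letters and was not tested for binding.
Mcm5: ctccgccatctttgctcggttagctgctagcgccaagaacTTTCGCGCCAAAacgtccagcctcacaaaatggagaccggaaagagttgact
Mcm6: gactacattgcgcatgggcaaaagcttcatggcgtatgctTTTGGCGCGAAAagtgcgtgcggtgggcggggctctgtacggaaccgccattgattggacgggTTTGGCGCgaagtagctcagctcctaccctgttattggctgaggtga
Cdc6: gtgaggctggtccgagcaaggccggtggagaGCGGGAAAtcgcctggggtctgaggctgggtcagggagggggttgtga
Pola1: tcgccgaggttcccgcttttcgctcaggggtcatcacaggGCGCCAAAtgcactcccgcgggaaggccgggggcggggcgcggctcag
Uhrf1: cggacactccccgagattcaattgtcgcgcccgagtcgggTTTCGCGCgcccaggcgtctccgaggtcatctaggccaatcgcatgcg
Pcna: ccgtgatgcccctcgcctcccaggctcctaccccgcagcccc
Rfc1: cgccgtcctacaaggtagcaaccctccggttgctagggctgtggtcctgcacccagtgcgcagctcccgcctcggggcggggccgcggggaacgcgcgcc

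The libraries held 64099849 to 92683497 gene counts in OPCs and 44217695 to 50509592 in SSCs, and a level below is a CPM (a count scaled by library size after adjustment by the trimmed mean of M values, TMM, over all 17 libraries) unless it is given per kb. The 3 counts used as a floor equal 0.0407 to 0.0628 CPM, a bound on counting error alone because PCR copies were not told from molecules. The sort was visible in Ly6a, which encodes Sca-1 and lay between 0.569 and 12.4 in OPCs and between 386 and 1450 in SSCs, and in Pdgfra, at 54.8 to 149 and 339 to 522. A list of 20 leukocyte genes took 1.96% of the counts in OPC WT replicate 3, 1.64% in OPC 1013/1013 replicate 2 and 1.47% in SSC WT replicate 3, and 0.00456% to 0.137% in the other 14 libraries. Ptprc, which encodes CD45, the antigen gated out, lay at 52.8, 118 and 119 in these 3 libraries and at 0 to 9.20 elsewhere, with Ngp, Ltf and Lyz2 of granulocytes the most abundant of the list.

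Every member was detected in both cell types, yet their levels spanned a wide range. Compared per kb of exon, Pold2, the small subunit of polymerase delta, had the highest median level of the 41 in OPCs (22.7) and in SSCs (24.1). Gins4, a subunit of GINS, ranked 2 and 3 at 18.8 and 17.9. At the other end, Orc1, Pole and Mcm10 had median levels per kb of 0.155, 0.188 and 0.220 in OPCs and of 0.286, 0.113 and 0.00292 in SSCs. The ring subunits between them were unequal too per kb, from 12.95 for Mcm4 to 3.28 for Mcm2 in OPCs and from 9.69 to 1.535 for the same subunits in SSCs. The length used is that of all annotated exons of a gene merged, 6956 bases for Mcm2 and 3589 for Mcm4, so the order per kb depends in part on annotation. Not divided by length, the OPC median of Mcm2 was 22.8, above Mcm3 (20.8) and Mcm5 (18.95). In SSCs these medians were 10.7, 16.6 and 7.75.

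The members also differed in how far they varied. Orc2, of the origin recognition complex, had a highest level only 2.06 times its lowest over the 17 libraries, and Pold2, Rfc3, Gins4 and Rpa1 stayed within 2.09 to 2.43 times. The same ratio was 27.5 for Mcm6, 33.8 for Mcm2, 36.6 for Mcm3 and 30.7 for Pola2, the accessory subunit of polymerase alpha. A further 11 members had a library at or below 3 counts: Cdt1, Cdc6, Orc1, Mcm5, Mcm10, Gins1, Gins3, Pola1, Pole, Chaf1a and Uhrf1. For 8 of them such a library was SSC 1013/1013 replicate 1 at exactly 0 counts, which allows a level of up to 0.0550. Subunits of the same complexes could differ in this respect, as Gins4 and Gins3 did.

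Members at or under 3 counts in a library were low or uneven elsewhere too. Cdt1, which loads the ring with Cdc6, was at 7.06, 15.3 and 20.1 in WT, 8.07, 7.28 and 13.5 in +/1013 and 9.11, 20.2 and 11.6 in 1013/1013 OPCs, and in SSCs at 7.74, 7.61 and 21.02, at 7.53, 8.20 and 5.22 and at 0 and 10.6. Orc1, the ATPase of the origin complex, was at 0.367, 1.24 and 2.35, at 0.538, 0.136 and 0.156 and at 1.28, 2.39 and 0.0731 in OPCs, and at 1.13, 0.524 and 4.85, at 3.23, 0.862 and 0.437 and at 0 and 1.25 in SSCs. The groups of each cell type overlapped for both genes. Gins1 was at 1.52, 0.763 and 2.03, at 0.784, 0.544 and 1.54 and at 0.929, 3.95 and 0.657 in OPCs, and at 1.22, 0.898 and 2.21, at 0.650, 0.575 and 1.71 and at 0 and 2.27 in SSCs. Gins3, of the same complex, was at 0.964, 3.10 and 14.4, at 5.19, 7.22 and 4.58 and at 1.76, 4.44 and 4.77 in OPCs, and at 5.42, 1.42 and 6.70, at 0, 7.36 and 2.78 and at 3.04 and 3.87 in SSCs. Its 0 was in SSC +/1013 replicate 1, while both 1013/1013 libraries had it, and its groups overlapped in both cell types.

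Chaf1a, the large subunit of the histone chaperone behind the fork, was at 4.10, 6.66 and 7.18, at 4.44, 5.77 and 3.03 and at 5.48, 10.8 and 2.89 in OPCs, and at 3.31, 2.29 and 15.3, at 5.39, 3.18 and 3.49 and at 0.0367 and 4.30 in SSCs. Pole had 2.07, 0.599 and 13.0 in WT SSCs, 2.57, 0.0383 and 1.87 in +/1013 SSCs and 0 and 0.652 in 1013/1013 SSCs. In SSCs the groups overlapped for both. Fen1 was at 0.964, 0.780 and 2.16, at 0.738, 1.01 and 0.680 and at 0.458, 2.17 and 1.35 in OPCs, and at 0.697, 0.434 and 0.900, at 0.513, 0.307 and 0.873 and at 0.128 and 0.391 in SSCs, so its 1013/1013 SSC libraries lay below WT. Of the remaining members, Rrm1, the large reductase subunit, ranged from 39.8 to 100.7 in OPCs and from 23.5 to 84.4 in SSCs. Lig1, the ligase of the lagging strand, ranged from 5.19 to 23.5 and from 6.23 to 36.5, and Pold1, the catalytic subunit of polymerase delta, from 20.5 to 42.9 and from 11.4 to 53.4. Mcm7 and Rpa1 stayed above 25 in every library, whereas Gins2 and Pole2 never exceeded 10.1.

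Reads shared with neighbouring genes limit some of these levels. Of the exon bases of Fen1, the flap endonuclease, 84.2% also belong to exons of Tmem258 or Gm10143 in GENCODE M21. The shares were 67.3% for Gins2 (with Gse1), 52.5% for Chaf1a (with Ubxn6) and 29.8% for Orc2 (with Nif3l1). Reads in such stretches may have been left uncounted or given to either gene, since the strand setting of the counting is not given in the sources used here. Fen1 ranked 37 in OPCs and 39 in SSCs per kb. The pseudogene Pcna-ps2 held 15 to 56 counts, against 768 to 5478 for Pcna.

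**Figure D1:**
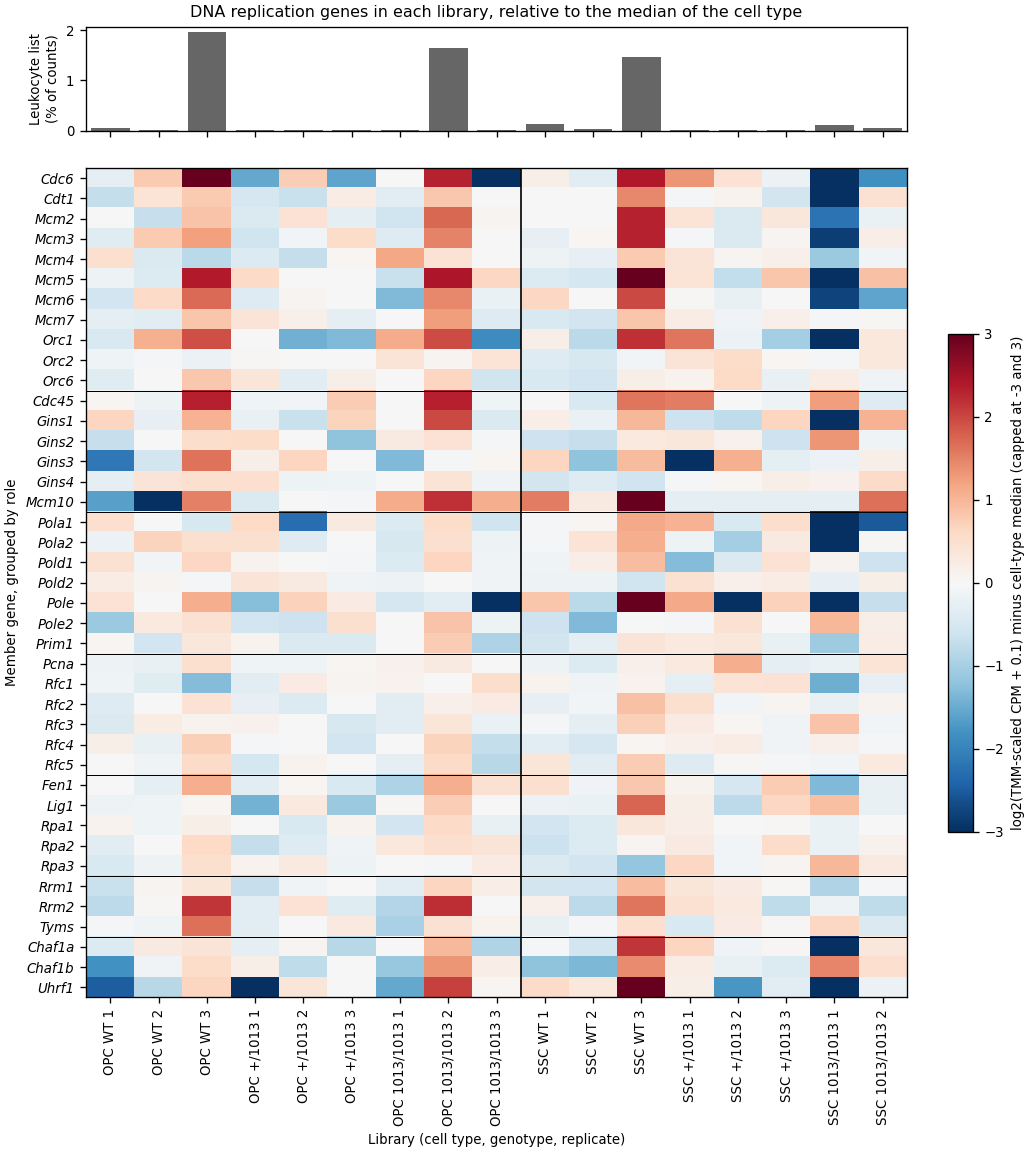
Heat map of the 41 members (rows, grouped by role) in the 17 libraries (columns), as log2 of the TMM-scaled CPM plus 0.1 minus the median of the same cell type (capped at -3 and 3), below bars of the leukocyte list's share of counts in percent. The 3 libraries with 1.47% to 1.96% of leukocyte counts are red for most members. SSC 1013/1013 replicate 1 is dark blue for members at 0 counts, apart from Mcm10, whose SSC median is only 0.0225.

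The clearest pattern among the members ran between libraries of a group and not between genotypes. In the plot of all members by library, OPC WT replicate 3, OPC 1013/1013 replicate 2 and SSC WT replicate 3, those with the high leukocyte share, stood above the rest. Each exceeded both other libraries of its group for 34, 35 and 38 of the 41 members (82.9%, 85.4% and 92.7%), where this held for 33.5%, 36.1% and 32.9% of all genes tested. The median member lay at 1.74, 1.96 and 1.98 times the mean of the other 2 libraries, and the median gene at 0.916, 0.979 and 0.924 times. The choice of these libraries used the leukocyte genes alone, no test was made of the pattern, and the part of leukocytes in it was not tested.

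The size of that excess differed between roles. Mcm5, a ring subunit, was at 17.1, 14.2 and 99.6 in WT OPCs, at 11.98, 103 and 29.3 in 1013/1013 OPCs and at 5.63, 5.14 and 64.5 in WT SSCs, in the order of the replicates. Rrm2, the regulated subunit of ribonucleotide reductase, which makes deoxynucleotides, was at 12.4, 21.6 and 94.7, at 11.5, 99.1 and 21.2 and at 20.6, 10.7 and 56.5. Cdc45 had 3.91, 3.35 and 19.3, then 3.74, 19.2 and 3.43, then 4.69, 3.34 and 14.2. In each of these 9 runs the high library was the leukocyte-rich one, and no library outside these 3 reached it in its cell type for Mcm5 or Rrm2. Among the 11 origin and loading genes the median excess was 2.17, 3.21 and 3.10 times in the 3 libraries, against 1.54, 1.35 and 1.52 times among the 6 genes of clamp and clamp loader. It was 2.45, 3.18 and 6.72 for chromatin genes, 3.56, 1.78 and 2.02 for helicase activation and 3.385, 1.72 and 2.83 for nucleotide supply. For polymerases and primase it was 1.32, 1.92 and 1.835, and for single-strand binding and joining 1.69, 1.66 and 1.59. The order of the roles thus differed between the 3 libraries. Uhrf1, which brings the maintenance methyltransferase to newly copied DNA, reached 12.4 in OPC WT replicate 3 beside 1.34 and 4.40, and 41.5 in SSC WT replicate 3 beside 3.40 and 2.85. Mcm5 was at 28.1, 18.8 and 18.9 in +/1013 OPCs, at 9.87, 4.43 and 13.3 in +/1013 SSCs and at 0 and 13.9 in 1013/1013 SSCs, and Rrm2 at 17.02, 28.7 and 16.3, at 25.4, 22.6 and 10.8 and at 16.5 and 10.8. Cdc45 was at 3.44, 3.52 and 6.37, at 13.6, 4.60 and 4.14 and at 11.2 and 3.56, and Uhrf1 at 0.323, 10.2 and 7.90, at 2.57, 0.613 and 1.80 and at 0 and 2.01. The groups without a leukocyte-rich library stayed below these peaks for Mcm5, Rrm2 and Uhrf1, while Cdc45 in SSC +/1013 replicate 1 was close to its value in SSC WT replicate 3. Rfc1, the large subunit of the clamp loader, went the other way in OPC WT replicate 3, at 8.23 beside 18.7 and 15.8.

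Of the 41 members, 13 were highest of all OPC libraries in WT replicate 3 and 20 in 1013/1013 replicate 2, where 16.1% and 12.7% of all genes had their highest value. In SSCs, 25 of 41 were highest in WT replicate 3, beside 17.1% of all genes. The lowest SSC value fell in 1013/1013 replicate 1 for 18 members, beside 28.2% of all genes, and this library also had the fewest genes detected (15748). The proliferation marker Mki67 moved with them in part, at 10.2 in OPC WT replicate 3 beside 0 and 1.04, and at 32.7 in SSC WT replicate 3 beside 4.58 and 2.17. In 1013/1013 OPCs its order was 1.61, 5.60 and 7.52, with the leukocyte-rich replicate 2 in the middle. A list of 16 mitosis genes that holds Mki67 was high in all 3 leukocyte-rich libraries. Relative to the median of the cell type, its median gene lay at 1.47 (log2) in OPC WT replicate 3. It lay at 1.36 in OPC 1013/1013 replicate 2, at 3.02 in SSC WT replicate 3 and at -1.42 to 0.44 in the other libraries.

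**Figure D2:**
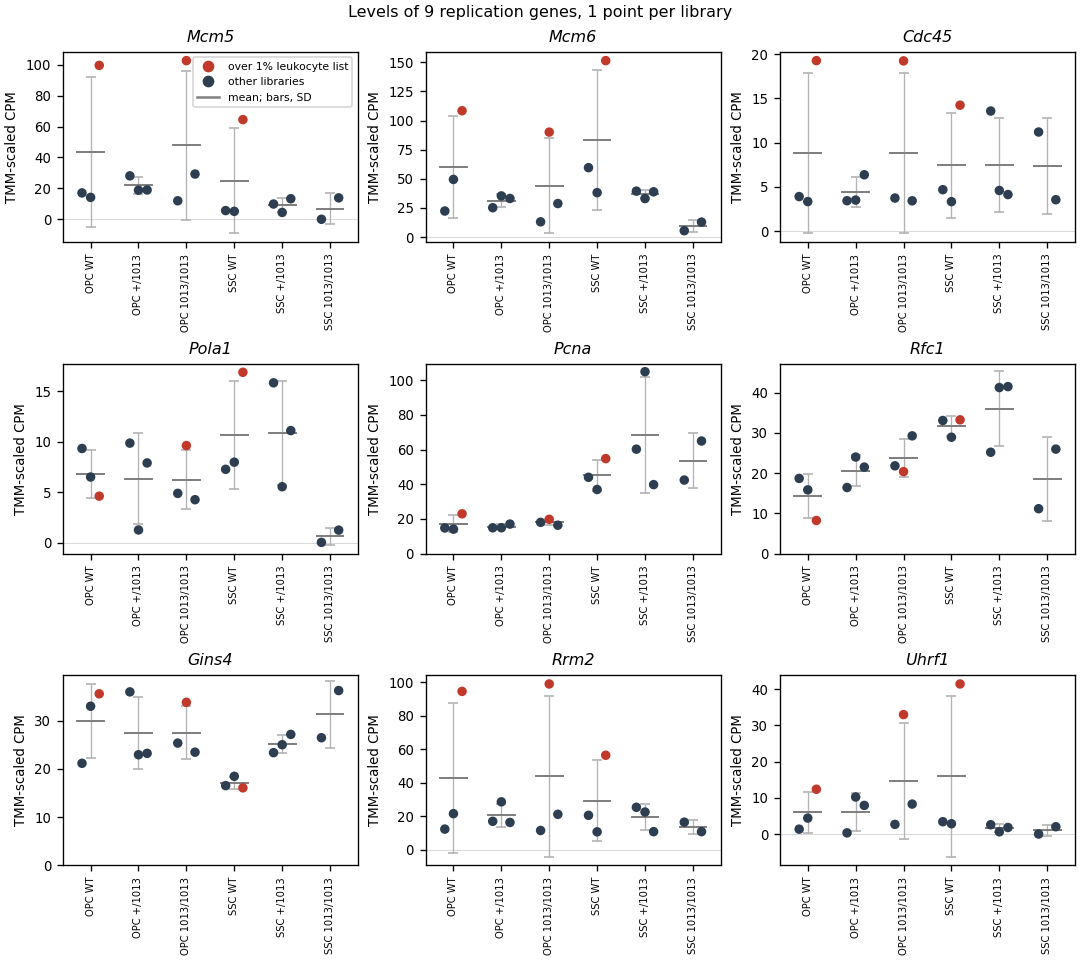
TMM-scaled CPM (vertical axis, linear) of 9 members in the 6 groups, 1 point per library, with the mean as a grey line and bars of 1 SD (n = 3, or 2 for 1013/1013 SSCs); libraries with over 1% leukocyte counts are red. Mcm5, Mcm6 and Rrm2 are set apart by the red points, Pcna separates SSCs (37.0 to 105) from OPCs (14.1 to 22.9), and Pola1 and Mcm6 are low in both 1013/1013 SSC libraries.

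Mutant SSCs were compared with WT SSCs. The allele was in every cell of the mice, so effects arising in SSCs and in other cells cannot be told apart. In +/1013 SSCs none of the 41 members was called by edgeR's quasi-likelihood test at an adjusted p under 0.05 and 1.5-fold, beside 0.0736% of the 17659 genes tested. DESeq2's Wald test called 0 members too, beside 8.33% of genes. It gave no adjusted p to 2 members in each SSC genotype comparison and to 1 in each OPC genotype comparison. The shares beside its calls, here and below, are of genes with an adjusted p. By edgeR, an unadjusted p under 0.05 was reached by 4 members, in a comparison where 17.3% of all genes reached it. The log2 fold changes of members had a median of -0.17, with 14 higher and 27 lower, and those of all genes -0.11. Without SSC WT replicate 3 the members' median was 0.42, with 30 higher and 11 lower, so the direction of the group rested on that library.

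Single members in +/1013 SSCs were read gene by gene. Gins4 was at 16.5, 18.5 and 16.1 in WT SSCs and at 23.4, 25.0 and 27.2 in +/1013 SSCs. The groups did not overlap, and the log2 fold change was 0.54 (SE 0.20, adjusted p = 0.234, edgeR). Pold2 was at 41.1, 40.9 and 29.8 and at 62.3, 50.3 and 52.7, again without overlap (log2 fold change 0.55, SE 0.20, adjusted p = 0.231, edgeR). Such separation was seen for 4 members in the higher direction (15% of all genes), the others being Orc2 and Rpa3, and for 2 in the lower direction (16.2%), Mcm10 and Uhrf1.

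Mcm10, which helps to start the helicase and bridges it to primase, had 0 counts in all 3 libraries of +/1013 SSCs. In WT SSCs it was at 0.248, 0.0449 and 7.71, so nearly all its WT signal came from replicate 3. Summed over each group and against a floor of 3 counts over the +/1013 group, Mcm10 was at least 146-fold lower, and at least 8.09-fold lower without WT replicate 3 (adjusted p = 0.227 and 0.466, edgeR). Mcm6 was at 59.6, 38.2 and 151 in WT and at 39.4, 33.1 and 38.9 in +/1013 SSCs. These ranges overlapped, and its log2 fold change went from -1.20 (SE 0.53) to -0.40 without WT replicate 3.

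In 1013/1013 SSCs, edgeR again called 0 of the 41 members, beside 0% of 17659 genes. An unadjusted p under 0.05 was reached by 5 members and by 18.3% of all genes. DESeq2's Wald test called 5 members, Mcm6, Pola1 and Cdc6 lower and Gins4 and Rpa3 higher, beside 11.2% of genes. The median log2 fold change was -0.37 for members and -0.23 for all genes, and without WT replicate 3 it was 0.13 and -0.13.

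Mcm6 was the member with the smallest p. It was at 59.6, 38.2 and 151 in WT SSCs and at 5.50 and 12.9 in 1013/1013 SSCs, with a gap between the groups. The log2 fold change was -3.19 (SE 0.67, adjusted p = 0.107, edgeR) and -2.40 without WT replicate 3 (adjusted p = 0.219). The +/1013 libraries, at 33.1 to 39.4, overlapped WT, and all 3 were above both 1013/1013 libraries (log2 fold change -1.99, SE 0.63, adjusted p = 0.788, edgeR).

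Pola1, the catalytic subunit of polymerase alpha, was at 7.26, 7.97 and 16.9 in WT SSCs and at 15.8, 5.54 and 11.1 in +/1013 SSCs. In 1013/1013 SSCs it was at 0.0367 (2 counts) and 1.25. In OPCs it was at 9.32, 6.497 and 4.61 in WT, at 9.85, 1.26 and 7.89 in +/1013 and at 4.88, 9.61 and 4.25 in 1013/1013. Both homozygous libraries lay below all other SSC libraries. The log2 fold change against WT was -4.08 (SE 1.31, adjusted p = 0.186, edgeR), and -3.57 without WT replicate 3. By DESeq2's Wald test the adjusted p was 0.00265 against WT and 0.0162 against +/1013, the only member it called in the latter comparison, beside 1.06% of genes.

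Cdc6, the loading factor, was at 3.56, 2.49 and 16.98 in WT SSCs and at 0 and 0.801 in 1013/1013 SSCs, also without overlap (log2 fold change -4.29, SE 1.83, adjusted p = 0.270, edgeR, and -2.91 with adjusted p = 0.489 without WT replicate 3). The higher members were of other roles. Gins4 stood at 26.5 and 36.3 in 1013/1013 SSCs, above all WT libraries (log2 fold change 0.89, SE 0.22, adjusted p = 0.135, edgeR). Rpa3, the small subunit of the single-strand binding protein, was at 15.4 and 9.18 beside 5.65, 5.06 and 3.35 in WT (log2 fold change 1.41, SE 0.45, adjusted p = 0.187, edgeR). Neither pair of groups overlapped. Of the 41 members, 4 lay above WT without overlap and 7 below, beside 16.4% and 24.3% of all genes.

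The roles differed in their values in 1013/1013 SSCs, and these values rested on single libraries. Among the 11 origin and loading genes, 9 had a lower fitted value than WT, with a median log2 fold change of -1.83, while Orc2 and Orc6 had higher values. Without SSC WT replicate 3 the median of these genes was -0.41, with 7 lower. Relative to the SSC median they lay at -2.79 (log2) in 1013/1013 replicate 1 and at 0.044 in replicate 2. The 7 genes for polymerases and primase had a median of -0.61 with 5 lower, and of -0.25 with 4 lower without WT replicate 3. The medians with and without that library were -1.72 and -0.37 for the 3 chromatin genes, -0.53 and 0.18 for the 3 of nucleotide supply, -0.18 and 0.48 for the 6 of helicase activation, 0.018 and 0.28 for the 6 of clamp and loader and 0.053 and 0.52 for the 5 of single-strand binding and joining. Among all 17659 genes 10212 had lower values, and none of the role counts includes a call by edgeR.

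**Figure D3:**
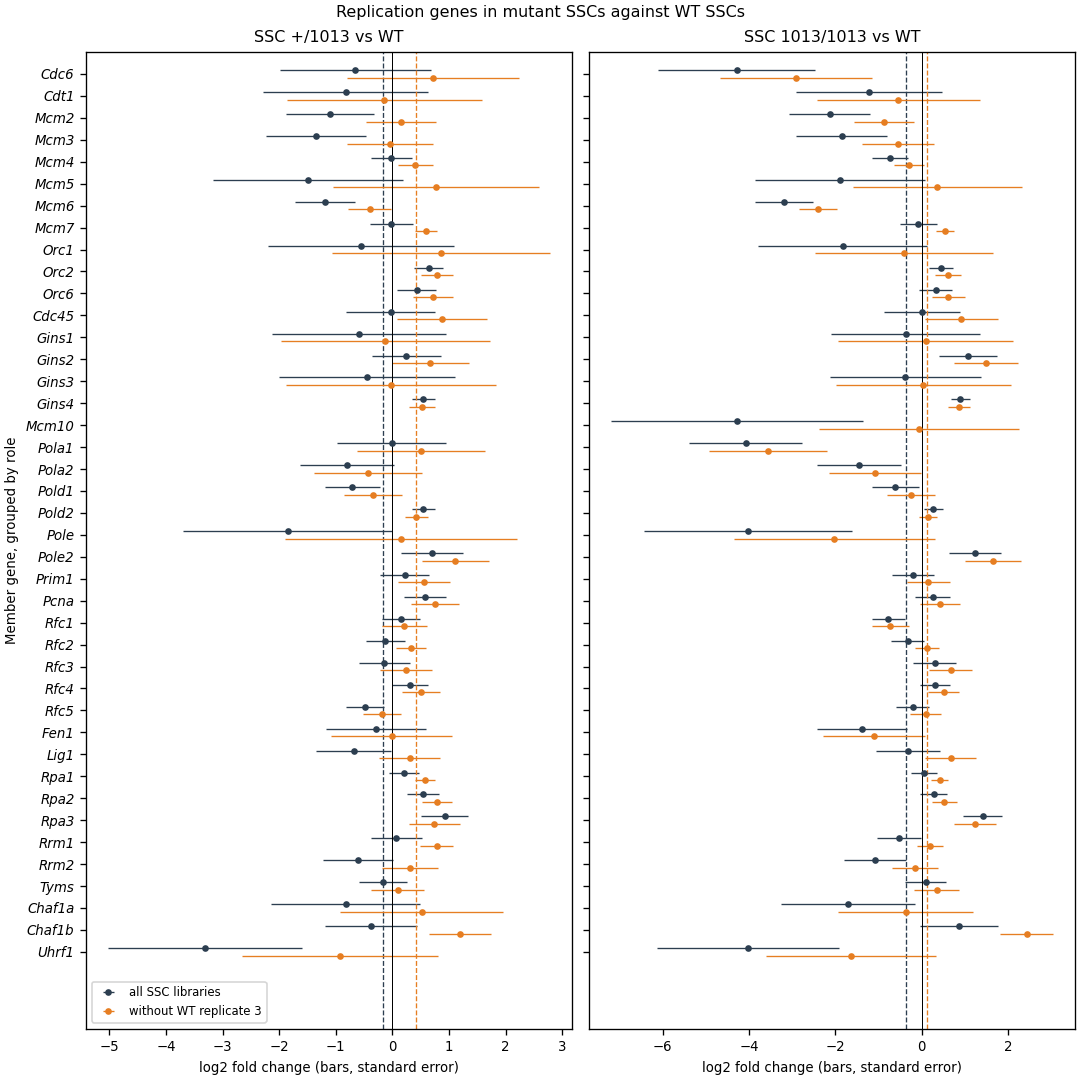
Log2 fold change (horizontal axis, bars of 1 standard error) of each member in +/1013 (left) and 1013/1013 (right) SSCs against WT SSCs, with all libraries in dark blue and without WT replicate 3 in orange; dashed lines are the members' medians and Mcm10 is left out on the left, where the mutant group has 0 counts. The median moves from -0.17 to 0.42 on the left and from -0.37 to 0.13 on the right.

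The libraries of 1013/1013 SSCs differed from each other in the members. Replicate 1 had 8 members at 0 counts, among them Mcm5, Cdt1 and Uhrf1, and replicate 2 had none, with Mcm5 at 13.9, Cdt1 at 10.6 and Uhrf1 at 2.01. With replicate 1 as the lone library of its group, assumed to vary like the other groups, edgeR called 10 members against WT, beside 14.8% of genes. With replicate 2 alone it called 0, beside 0%. Chaf1b, a subunit of the histone chaperone that follows the fork, was instead higher in replicate 1 (14.1) than in replicate 2 (7.24). Cdc45 was at 11.2 and 3.56, so replicate 1 was not low for every member.

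In OPCs, edgeR called 0 of the 41 members in +/1013 against WT, beside 0% of 16207 genes, and 0 in 1013/1013 against WT, beside 0.00617%. No member had an unadjusted p under 0.05 in either comparison, where 2.04% and 3.38% of all genes had one, and DESeq2's Wald test called 0 members beside 0.367% and 0.266%. In +/1013 OPCs 35 members had lower and 6 higher fitted values, with a median of -0.27 against -0.00 for all genes. Without the leukocyte-rich OPC libraries the median was -0.01, and 22 had lower values. Orc2 was the 1 member above WT without overlap (2.82% of all genes), and none lay below (2.46%). In 1013/1013 OPCs, with a leukocyte-rich library on both sides, the median was 0.02.

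Rfc1 and Orc2 had the smallest p in the higher direction in both OPC comparisons. Rfc1 was at 18.7, 15.8 and 8.23 in WT OPCs, at 16.4, 24.0 and 21.5 in +/1013 and at 21.8, 20.4 and 29.3 in 1013/1013 OPCs. Orc2 was at 15.5, 16.6 and 14.9, then at 17.6, 17.03 and 17.02, then at 22.1, 17.9 and 22.5. For both genes the 1013/1013 libraries lay above WT without overlap, with log2 fold changes of 0.74 (SE 0.33) and 0.41 (SE 0.19), and in the higher direction this held for 2 of 41 members and 3.98% of all genes. Neither was called (adjusted p = 1.00 each, edgeR). For Pole, the catalytic subunit of polymerase epsilon, levels were 2.85, 2.10 and 4.58 in WT and 1.46, 1.68 and 0.164 in 1013/1013 OPCs, without overlap (log2 fold change -1.54, SE 0.91), the 1 member below WT in this way (3.63% of all genes).

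Other members named beside them overlapped between groups. Rpa2, the middle subunit of the single-strand binding protein, was at 19.9, 24.7 and 37.7 in WT OPCs and at 14.9, 18.9 and 23.0 in +/1013 OPCs (log2 fold change -0.54, SE 0.27). Tyms, which makes thymidylate, was at 9.85, 9.34 and 32.5 in WT and at 5.20, 14.0 and 11.1 in 1013/1013 OPCs. Its log2 fold change of -0.78 (SE 0.56) was 0.070 without WT replicate 3. Cdc6 was at 0.978, 2.19 and 17.4 in WT and at 0.353, 2.12 and 0.340 in +/1013 OPCs, where the log2 fold change went from -2.89 (SE 1.87) to -0.77.

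Between the mutant genotypes, 34 of 41 members had higher fitted values in 1013/1013 than in +/1013 OPCs, with a median of 0.36 against 0.02 for all genes. EdgeR called 0 of them, beside 0% of genes, DESeq2 called 0, beside 0.373%, and 2 members, Rpa2 and Mcm4, had an unadjusted p under 0.05 (3.17% of all genes). Without the leukocyte-rich 1013/1013 replicate 2 the median was -0.18. Mcm10, Orc2 and Rpa2 lay above without overlap (3 of 41, beside 3.54% of all genes) and no member lay below (3.79%). In SSCs the same comparison gave 0 calls by edgeR beside 0%, a median of -0.27 against -0.05, and 3 members at an unadjusted p under 0.05, Mcm6, Pola1 and Rfc1, beside 5.53% of genes. There 6 members lay lower in 1013/1013 without overlap, Cdc6, Mcm4, Mcm6, Pola1, Rpa1 and Rrm1, and 1 higher, Chaf1b (9.32% and 6.55% of all genes).

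Pcna set the cell types apart. It lay between 14.1 and 22.9 in the 9 OPC libraries and between 37.0 and 105 in the 8 SSC libraries. Its levels were 14.8, 14.1 and 22.9 in WT OPCs, 14.9, 14.9 and 17.02 in +/1013 OPCs and 18.01, 19.8 and 16.4 in 1013/1013 OPCs. In SSCs they were 44.0, 37.0 and 54.8 in WT, 60.3, 105 and 39.8 in +/1013, and 42.4 and 65.0 in 1013/1013. It was the only member whose SSC libraries all lay above all OPC libraries (1 of 41, beside 5.71% of all genes), and none lay below in this way (beside 5.17%).

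The log2 fold change of Pcna from OPCs to SSCs was 1.39 (SE 0.32, adjusted p = 0.0126) in WT, 2.13 (SE 0.33, adjusted p = 0.000791) in +/1013 and 1.57 (SE 0.35, adjusted p = 0.00954) in 1013/1013 cells, by edgeR over all 17 libraries. Without the 3 leukocyte-rich libraries it was 1.49, 2.13 and 1.65, with adjusted p = 0.0509, 0.00167 and 0.0211. In WT the adjusted p was 0.0581 without OPC WT replicate 2, and in 1013/1013 cells 0.0569 with only those 2 groups fitted. Per kb its median rank among members went from 10 in OPCs to 2 in SSCs.

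Few other members separated the cell types. EdgeR called 2 members in WT, 1 in +/1013 and 1 in 1013/1013 cells, beside 11.4%, 12.5% and 13.1% of 20238 genes. An unadjusted p under 0.05 was reached by 4, 5 and 9 members, beside 26.7%, 27.6% and 28.3% of genes. The other call in WT was Rfc1, at 33.1, 28.9 and 33.3 in SSCs and 18.7, 15.8 and 8.23 in OPCs, without overlap (log2 fold change 1.16, SE 0.35, adjusted p = 0.0490). With the replicate number as a block, its adjusted p was 0.0670 and Pcna was the 1 member called. Without the leukocyte-rich libraries Rfc1 had an adjusted p of 0.266. In 1013/1013 cells Rfc1 was at 11.2 and 26.0 in SSCs and 20.4 to 29.3 in OPCs, overlapping, with a log2 fold change of -0.36 (SE 0.39).

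Within a genotype more members were separated without being called. In WT 3 members lay higher in SSCs without overlap, Pcna, Rfc1 and Prim1, and 2 lower, Gins4 and Pold2 (22.2% and 15.7% of all genes). In +/1013 cells 7 lay higher and 4 lower (18.1% and 17% of genes), and in 1013/1013 cells 2 lay higher and 10 lower (18.4% and 21.8%).

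After Pcna and Rfc1, the members with the smallest p in WT were Gins4 and Rfc2, neither called by edgeR. Gins4 was at 16.5, 18.5 and 16.1 in WT SSCs and 21.2, 33.0 and 35.6 in WT OPCs, without overlap (log2 fold change -0.81, SE 0.25, adjusted p = 0.0516, edgeR). Rfc2, a small loader subunit, was at 22.8, 25.8 and 49.8 and at 40.8, 53.7 and 72.3, with overlap (log2 fold change -0.76, SE 0.31, adjusted p = 0.130, edgeR). Mcm10 was at 1.23, 1.69 and 1.64 in +/1013 OPCs and at 0 counts in +/1013 SSCs, at least 84.6-fold lower against a floor of 3 counts over the group (adjusted p = 0.0615, edgeR). DESeq2's Wald test called Mcm10 there, with Pcna and Prim1, the small primase subunit (3 members, beside 24% of genes).

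In WT DESeq2's Wald test called 3 members, Pcna and Rfc1 higher and Gins4 lower in SSCs, beside 21.1% of genes. In 1013/1013 cells it called 9, beside 27.4%. Those were Pcna higher in SSCs and Mcm2, Mcm4, Mcm6, Mcm10, Pola1, Fen1, Rfc2 and Uhrf1 lower. Fitted values were lower in SSCs for 29 of 41 members in this genotype, for 22 in WT and for 19 in +/1013, with medians of -0.36, -0.07 and 0.09 beside -0.20, 0.17 and 0 for all genes.

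The other libraries of members named above complete their levels. In the order WT, +/1013 and 1013/1013, Mcm6 was at 22.4, 49.5 and 108, at 25.2, 35.4 and 33.2 and at 13.1, 90.1 and 28.8 in OPCs. Mcm10 was at 0.475, 0 and 5.003 in WT OPCs, at 3.76, 8.12 and 3.69 in 1013/1013 OPCs and at 0 and 0.279 in 1013/1013 SSCs. Cdc6 was at 1.22, 6.40 and 0 in 1013/1013 OPCs and at 8.01, 4.25 and 2.74 in +/1013 SSCs. Mcm10 was thus missing from a WT OPC library too, and Cdc6 from a 1013/1013 OPC library. Orc2 was at 13.2, 12.5 and 16.6 in WT, 22.9, 25.7 and 18.3 in +/1013 and 16.6 and 21.9 in 1013/1013 SSCs, with both mutant groups above WT. Uhrf1 was at 2.66, 33.0 and 8.27 in 1013/1013 OPCs, and Pole at 0.799, 3.42 and 2.51 in +/1013 OPCs. Gins4 was at 36.0, 22.9 and 23.2 in +/1013 and at 25.4, 33.8 and 23.5 in 1013/1013 OPCs, overlapping WT.

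Pold2 was at 50.1, 45.3 and 41.9, at 56.0, 51.7 and 39.8 and at 38.7, 43.0 and 40.1 in OPCs, and at 38.2 and 51.0 in 1013/1013 SSCs. Rpa3 was at 4.36, 5.39 and 8.5, at 6.53, 7.30 and 5.42 and at 6.02, 5.82 and 7.20 in OPCs, and at 11.7, 7.18 and 8.12 in +/1013 SSCs, above WT. Rfc1 was at 25.2, 41.3 and 41.5 in +/1013 SSCs, overlapping WT. Rfc2 was at 44.8, 40.05 and 53.3 in +/1013 and 42.6, 59.5 and 63.1 in 1013/1013 OPCs, and at 38.1, 25.4 and 28.5 and at 23.0 and 29.2 in the SSCs of the same genotypes, which lay below the OPCs in each. Rpa2 was at 30.6, 34.5 and 32.4 in 1013/1013 OPCs, and in SSCs at 15.6, 18.5 and 25.9, at 29.6, 23.4 and 35.9 and at 21.4 and 26.8. Tyms was at 8.10, 10.2 and 12.7 in +/1013 OPCs, and in SSCs at 7.52, 8.64 and 12.5, at 6.45, 10.5 and 9.01 and at 13.5 and 6.498. For Rpa2 and Tyms the SSC groups overlapped.

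**Figure D4:**
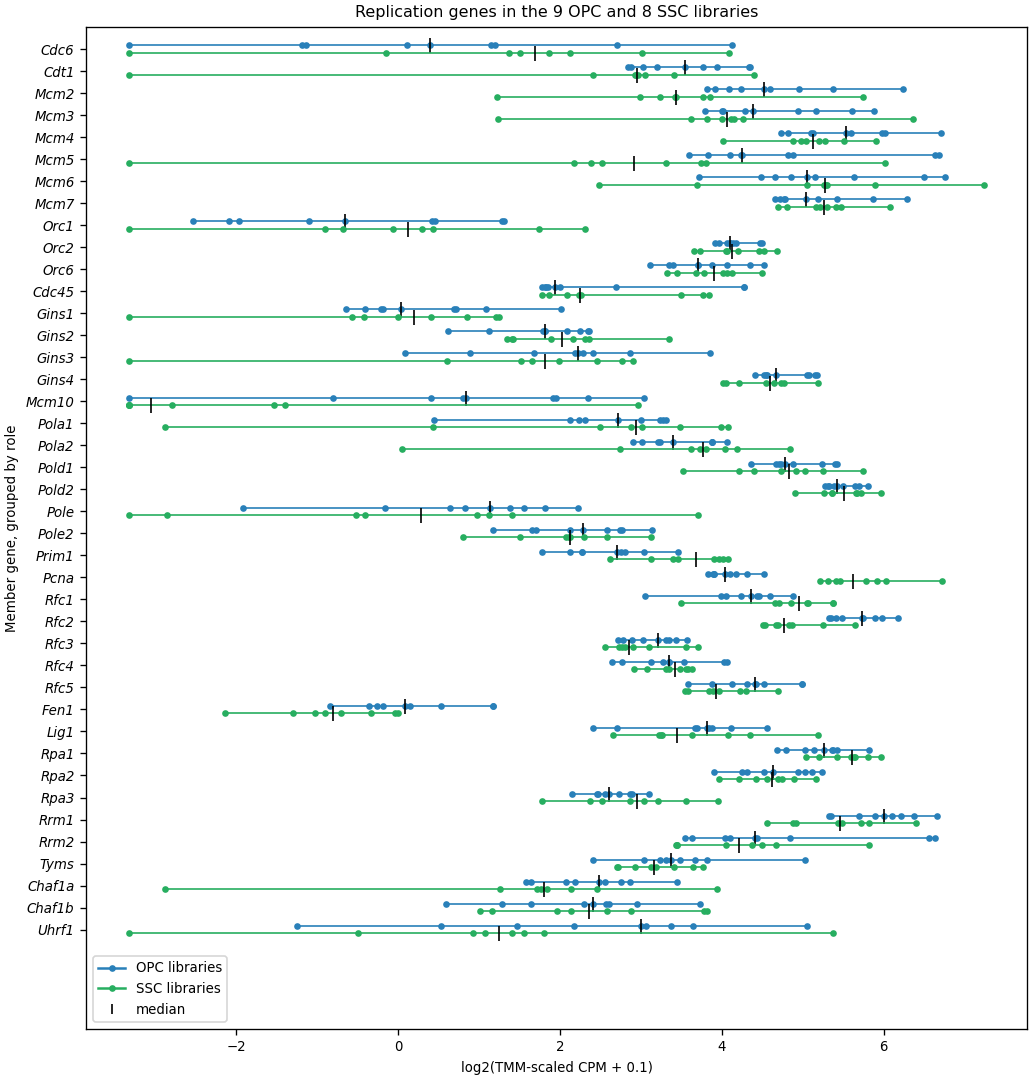
Levels of each member, as log2 of the TMM-scaled CPM plus 0.1 (horizontal axis), in the 9 OPC (blue) and 8 SSC (green) libraries, with lines over the range and a black tick at the median. Pcna is the only row whose 2 ranges do not touch; points at the far left are libraries at 0 counts.

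Whether the genotype effect differed between SSCs and OPCs was tested as an interaction over all 17 libraries. EdgeR called 0 of 41 members for +/1013, beside 0.084% of genes, and 0 for 1013/1013, beside 0.153%. An unadjusted p under 0.05 was reached by 2 and by 7 members, beside 10.6% and 15% of genes. DESeq2's Wald test called 1 member in each, Mcm10 and Pola1, beside 2.67% and 6.83% of genes. For Pola1 the difference of log2 fold changes was -3.93 (SE 1.43, adjusted p = 0.249, edgeR), where the fits of each cell type gave -4.08 in SSCs and -0.13 in OPCs. For Mcm6 it was -2.73 (SE 1.06, adjusted p = 0.274, edgeR), and for Rfc1 -1.52 (SE 0.53, adjusted p = 0.238, edgeR).

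Of a further 58 genes of replication and its control, kept as a list beside the members, 55 passed the filter in SSCs and 57 in OPCs and over all 17 libraries. EdgeR called 0 of them between genotypes in either cell type. Between cell types it called 0 in WT, 2 in +/1013 and 3 in 1013/1013 cells, beside 11.4%, 12.5% and 13.1% of all genes. The called genes are given as values. Nasp, a histone chaperone, was higher in SSCs, at 37.8 to 82.7 beside 14.4 to 27.01 in +/1013 OPCs (log2 fold change 1.35, SE 0.32, adjusted p = 0.0143, edgeR). Pole4, a small subunit of polymerase epsilon, was higher in +/1013 (log2 fold change 0.93, SE 0.20) and in 1013/1013 (0.88, SE 0.22) SSCs, with levels of 32.3 to 48.6 there and 19.6 to 30.3 in the OPCs of both genotypes. The transcription factor gene E2f2 was lower in 1013/1013 SSCs, at 0.0916 and 0.521 beside 6.95, 31.8 and 2.94 in OPCs (log2 fold change -5.49, SE 1.31, adjusted p = 0.0149, edgeR). Replicate 2 of these OPCs is leukocyte-rich, and no fold change of E2f2 without it is given here. Shmt1, a folate enzyme that feeds thymidylate synthesis, had 0 counts in both 1013/1013 SSC libraries and 11.9 to 19.0 CPM in 1013/1013 OPCs, at least 525-fold lower against a floor of 3 counts over the group. Top2a, which untangles copied DNA, followed the members by library in the WT groups, at 57.4 in OPC WT replicate 3 beside 1.39 and 14.2, and at 46.8 in SSC WT replicate 3 beside 2.801 and 1.72.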

How the data were processed

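Bulk RNA of 9 OPC and 8 SSC libraries was measured. Low-input cDNA was amplified over 12 PCR cycles. The authors used STAR (mm10) and HTSeq, whose versions, strand setting and annotation are not given in the sources used here. The deposited values are whole-number counts without normalization. HTSeq's special counters were left out (reads on no gene, 1.15% to 4.15%). In R 4.3.3, edgeR 4.0.16 (filterByExpr, TMM, glmQLFit with legacy = TRUE, glmQLFTest) was fitted per cell type for genotypes and over all 17 libraries for cell types. Benjamini-Hochberg adjustment covered all genes tested. The standard error is the absolute log2 fold change over the square root of F. DESeq2 1.42.0 served as an alternative. Both were run on simulated counts with a capped spread between libraries and changes only in well-counted genes. That run does not show how they perform for members that vary widely or lie near the floor. Members, lists and tests were chosen with earlier results of these data known. Values in every library were given for members called, for the 2 of smallest p each way in comparisons with WT and of cell types in WT, for 1 example of each role and for those at or under 3 counts in a library. The labels give a replicate number and do not say whether same-numbered libraries share mice or a batch. Correlations of their deviations from the group means were all positive in WT SSCs and OPCs (0.126, 0.233 and 0.384) and in 1013/1013 and +/1013 OPCs (0.162, 0.126 and 0.211). The same held in +/1013 and WT OPCs (0.363, 0.0732 and 0.101) and in 1013/1013 and +/1013 SSCs (0.124 in both pairs). In the other pairs of groups they were negative or mixed. Whether the block reflects a shared origin was not tested.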

Additional observations from a re-analysis of the deposited data

How the results depend on the processing

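Of the alternative values, 704 kept their direction and side of the threshold or stayed within the spread, 44 moved, 15 passed the threshold, 13 lost it and 1 reversed. DESeq2's Wald test called 5 members in SSC 1013/1013 against WT, 1 against +/1013, 3 between cell types in +/1013, 9 in 1013/1013 and 1 in each interaction. Between cell types in 1013/1013 cells, where the reported fit called 1, the count was 2 with DESeq2's size factors in edgeR, 2 with upper-quartile normalization, 2 with libraries thinned to the smallest, 4 with the bias-adjusted quasi-likelihood, 5 with at least 10 counts in every library and 0 with only the groups compared. In +/1013 cells it was 2 with at least 10 counts, 2 with the bias-adjusted fit and 3 with only the groups compared, and in WT 1 without a filter, 1 with only the groups compared and 1 with the replicate block. For these counts the cause was not tested.

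The block also moved the members' median log2 fold change in SSC 1013/1013 against +/1013 to -0.081, and otherwise changed no number of members called. Correlations of same-numbered libraries were 0.124 in both pairs of that comparison. Without the 3 leukocyte-rich libraries, an alternative chosen after seeing the data, the medians were 0.42 in SSC +/1013 and 0.13 in SSC 1013/1013 against WT and -0.16 in OPC 1013/1013 against +/1013, and 0, 2 and 3 members were called between cell types in WT, +/1013 and 1013/1013 cells.

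Leaving out 1 library at a time, the members' median ran from -0.39 (without SSC WT replicate 2) to 0.42 (without replicate 3) in SSC +/1013 against WT and from -0.64 to 0.13 in SSC 1013/1013 against WT, with 0 to 10 members called in the latter and 10 only without SSC 1013/1013 replicate 2. In SSC 1013/1013 against +/1013 it ran from -0.47 to -0.11 with 0 to 6 called. In OPCs it ran from -0.47 to -0.01 (+/1013 against WT), from -0.46 to 0.38 (1013/1013 against WT) and from -0.18 to 0.60 (1013/1013 against +/1013). Between cell types it ran from -0.67 to 0.38 with 0 to 3 called in WT, from -0.038 to 0.12 in +/1013 and from -0.56 to -0.11 with 1 to 10 called in 1013/1013 cells. The interaction medians ran from -0.17 to 0.67 (+/1013) and from -0.97 to 0.12 with 0 to 7 called (1013/1013). For Tyms in OPC 1013/1013 against WT the log2 fold change ran from -1.08 to 0.070, reversing without OPC WT replicate 3. Upper-quartile normalization moved the median of all genes in the 1013/1013 interaction from -0.39 to -0.26. For the 11 members that fell to 3 counts or fewer in a library, the level there is only bounded by the floor. SSC 1013/1013 replicate 1 had 44217695 gene counts and 10 members this low. SSC WT replicate 3 had 44499967 gene counts and 0 such members. The part of depth in these low counts was not tested.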
